A study of Macaca mulatta with 17 samples.

Results

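The genes described here are the nuclear progesterone receptor PGR, the progesterone receptor membrane components PGRMC1 and PGRMC2, the p160 coactivators NCOA1, NCOA2 and NCOA3, and the nuclear receptor corepressor NCOR1, as measured in the uterus of fetal rhesus macaques. They were found as array probes, other than control spots, whose description names 1 of these 7 symbols. 6 of the 7 genes had such a probe, 1 each, among 15974 named genes and 20217 probes on the array, and NCOA1 was not analysed here. Pregnant rhesus macaques carrying female fetuses ate fruit holding either deuterated bisphenol A (BPA) at 400 µg per kg of body weight per day or its ethanol vehicle. The GD100 groups were dosed from gestational day (GD) 50 and delivered by caesarian section at GD100, with 5 control and 5 BPA-exposed uteri measured. The GD165 groups were dosed from GD100 until vaginal delivery at full term, GD165 to GD168, with 4 control and 3 BPA-exposed uteri measured, none of them from a stillbirth. Age therefore cannot be told apart from mode of delivery, and at GD165 both the start of exposure and the age differ from those at GD100. RNA came from the frozen side of each uterus, which had been cut lengthwise from fundus to cervix, and each fetus gave 1 array.

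PGR is a transcription factor that activates genes once it binds progesterone, the steroid that prepares the endometrium for implantation and keeps the myometrium quiet in pregnancy. It is released from heat shock protein chaperones on binding hormone, and then recruits p160 coactivators, which bring in histone acetyltransferases. Without an activating hormone, nuclear receptors can instead hold corepressors such as NCOR1, which works together with the histone deacetylase HDAC3. PGRMC1 and PGRMC2 are heme-binding membrane proteins of the cytochrome b5 family. They are unrelated to PGR in sequence and take part in steroid and cholesterol metabolism.

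What each array could see depended on 1 probe of 60 bases per gene, printed in 2 spots. The first 30 bases of 3 of these probes are shown, as deposited with the array, because the PGR probe was the only 1 of the 6 that stayed near background and because both membrane components are compared with each other. Capitals mark G and C.
PGR: atGaaCatttaaaatGttatGCaaaatttt
PGRMC1: aaaGtaGtCGtCaaGtGtCtaGGtCtttGa
PGRMC2: tGtGtCtGaatGtGtGtGtGaGCGCCttGG
The whole PGR probe held 14 G or C among its 60 bases (23.3%), against a median of 25 (41.7%) over the array. No more than that was found in 2.00% of all probes. Of those probes, 55.1% were well above background on all 17 arrays, against 80.3% of all 20217 probes. The PGRMC1 and NCOA2 probes each held 21 G or C, the NCOR1 probe 25, and the PGRMC2 and NCOA3 probes 27. Where these probes lie in the macaque genome was not analysed here.

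The deposited signals are linear spot intensities after background subtraction. Levels are given here as log2 of the signal, averaged over both spots and scaled to the same 75th percentile of each array, which lies at 12.62 on this scale. A level depends on the probe as well as on the RNA, so it is compared between samples and never between genes. Differences were tested with limma over all 17 arrays in 4 groups, two-sided, and a probe was called at a Benjamini-Hochberg adjusted p below 0.01 over all probes. The share of spots well above background was 83.8 to 89.0% on an array, and 6 slides held the arrays. The defining markers of smooth muscle, stroma, endothelium and Müllerian patterning were well above background on every array for 7 of 7 matched genes in each list. For epithelium this held for 6 of 6 matched genes in GD100 BPA and 5 of 6 in each other group. Squamous epithelium had 5 of 7 in each group, and skeletal muscle 5 to 8 of 8. In whole tissue, fewer cells of a type and less RNA per cell cannot be told apart.

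PGR was barely seen at GD100. On the 5 GD100 control arrays, 0 of 10 spots were well above background, and the signals lay between 1.92 and 3.99. On the 5 GD100 BPA arrays, again 0 of 10 spots were above it, with signals between 1.99 and 3.20. All 20 of these signals were small positive values that the scanning software writes for spots not above background, so they place no order among the GD100 samples.

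At GD165 a few PGR spots were well above background. In controls 1 of 8 spots was, on replicate 6, and the signals ran from 2.15 to 14.4. In BPA-exposed uteri 2 of 6 spots were, on replicates 4 and 5, and the signals ran from 3.67 to 75.3. The duplicate spots were far apart on GD165 BPA replicate 4, at 12.0 and 75.3, so the highest PGR signal rests on 1 spot. GD165 control replicate 5 stood at the other end, with both spots in the GD100 range.

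**Figure D1:**
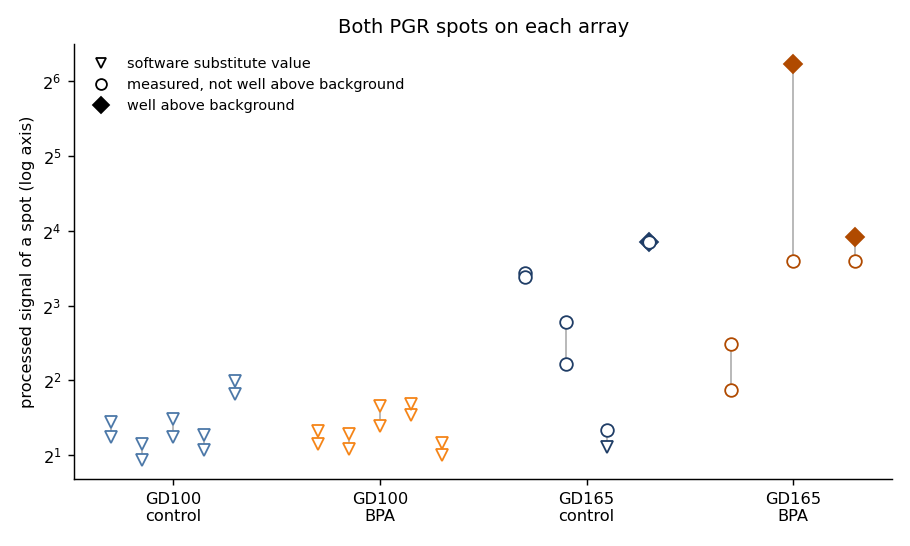
Processed signal of both PGR spots (log axis, joined by a line) on each of the 17 arrays, by group. All 20 GD100 spots are software substitutes below 4, and 3 of the 14 GD165 spots (filled diamonds) were well above background.

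On the log2 scale the mean PGR level was 1.37 ± 0.30 (SD, n = 5) in GD100 controls and 1.37 ± 0.25 (SD, n = 5) in GD100 BPA. In GD165 controls the values were 3.48, 2.65, 1.15 and 3.80, with a mean of 2.77 ± 1.19 (SD, n = 4). In GD165 BPA they were 1.96, 4.77 and 3.72, with a mean of 3.49 ± 1.42 (SD, n = 3). The GD165 controls overlapped both the GD100 controls and the GD165 BPA uteri. The GD165 BPA uteri are given no order against the GD100 BPA uteri, since replicate 3 also had 0 spots well above background.

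The dimmest probe well above background on an array lay, on average, at 3.69 to 3.77 in the 4 groups. The means of PGR were below that limit in each group, so no fold is given. With limma, the adjusted p for PGR was 0.068 between GD165 and GD100 controls, 0.016 between GD165 and GD100 BPA, 1 for BPA at GD100 and 0.79 for BPA at GD165. These p values rest on substitute values in the GD100 groups. Without GD165 control replicate 5 the adjusted p between control ages was 0.0076 and that between ages in BPA-exposed uteri 0.0052, and without GD165 BPA replicate 3 the latter was 0.0028, all below the threshold.

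PGRMC1 was the 1 gene of the 6 that was called, and only between ages in BPA-exposed uteri. Its level was 1.53-fold higher at GD165 than at GD100 there. It was bright on every array, with 34 of 34 spots well above background and duplicate spots no more than 0.112 apart on the log2 scale.

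In GD100 controls the PGRMC1 levels were 15.65, 15.69, 15.82, 15.80 and 15.81. In GD100 BPA they were 15.76, 15.72, 15.83, 15.87 and 16.03. These groups overlapped between 15.72 and 15.82, and the BPA values of 15.83, 15.87 and 16.03 lay above all controls. In GD165 controls the levels were 15.82, 15.98, 16.06 and 16.10, and in GD165 BPA 16.43, 16.26 and 16.66. Each of the 3 GD165 BPA values was above each of the other 14.

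The means were 15.75 ± 0.08 (SD, n = 5) in GD100 controls, 15.84 ± 0.12 (SD, n = 5) in GD100 BPA and 15.99 ± 0.13 (SD, n = 4) in GD165 controls. The mean of the GD165 BPA uteri was 16.45 ± 0.20 (SD, n = 3). In this order the first 3 groups overlapped with their neighbours, and the GD165 BPA group stood apart.

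**Figure D2:**
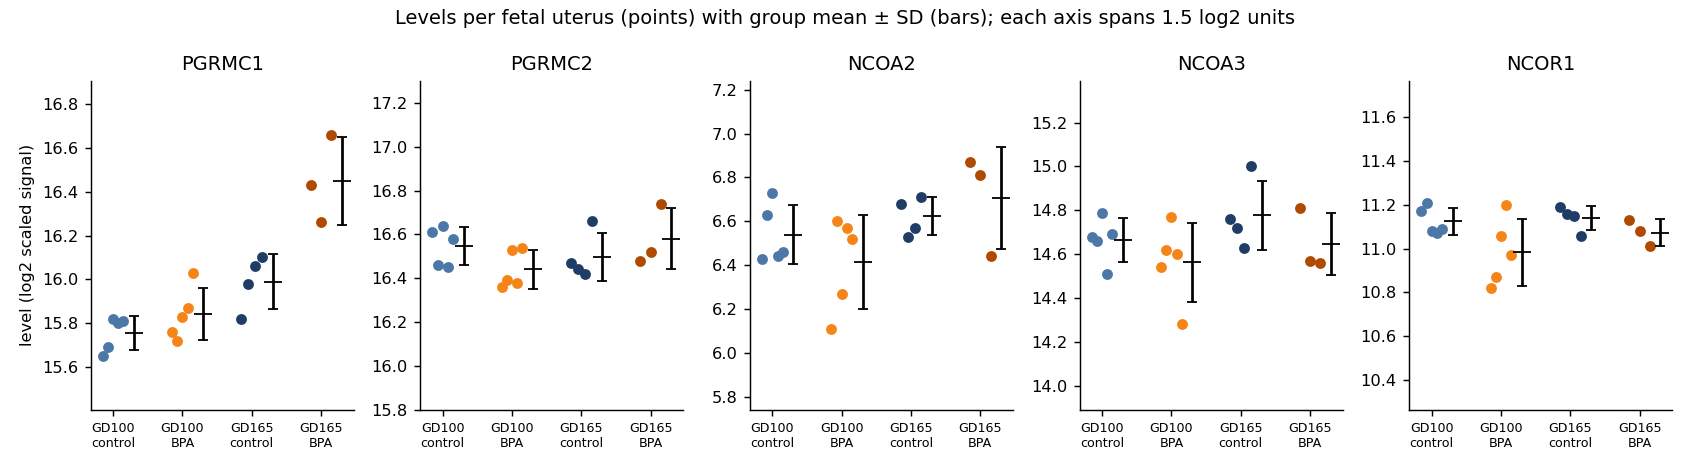
Levels (log2 of the scaled signal) of the 5 genes that were well above background, 1 point per fetal uterus, with the group mean and SD as bars, each axis spanning 1.5 log2 units. PGRMC1 is highest in the 3 GD165 BPA uteri, at 16.26 to 16.66, while for the other 4 genes the groups overlap.

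Between GD100 and GD165 the PGRMC1 level of BPA-exposed uteri rose by 0.61 (log2, SE 0.10), with an adjusted p of 9e-04 (limma). The 3 uteri at GD165 lay above the 5 at GD100 without overlap. Across the array 9.68% of probes were called in this comparison, that is 4.82% higher and 4.86% lower at GD165, and 27.2% had groups without overlap, 11.7% of all probes being higher. 1 called gene of 6 is close to this background. The call was lost, with the difference kept at 0.61 and 0.67, when only these 2 groups were fitted (adjusted p = 0.012) and when slide was a fixed block (adjusted p = 0.013). In controls the difference between ages was 0.23 (log2, SE 0.09, adjusted p = 0.089 with limma), with a 95% interval from 0.04 to 0.43. The unadjusted p was 0.024 by limma, and 26.8% of probes had a p no larger. A two-sided exact permutation test gave p = 0.0159. Between control ages 11.5% of probes were called, 6.32% higher and 5.2% lower, and 19.4% had groups without overlap. 0 of the 6 genes were called among controls.

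At GD165 the PGRMC1 level was 0.46 higher on the log2 scale in BPA-exposed than in control uteri (SE 0.11), or 1.38-fold, with a 95% interval of the difference from 0.24 to 0.69. The unadjusted p was 5.6e-04 and the adjusted p 0.33 by limma, and 33 probes (0.163%), PGRMC1 among them, had a p no larger. The 3 BPA values lay above the 4 control values, which held for 2.07% of all probes (7.31% lay apart in either direction). An exact permutation test gave a two-sided p of 0.0286, the smallest that 3 uteri against 4 allow. In this comparison 0% of probes were called, that is 0 of 20217, and 1740 had an unadjusted p below 0.05. PGRMC1 is therefore reported as a difference that did not pass the correction.

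These PGRMC1 comparisons share the same 3 GD165 BPA arrays, which lay on 2 slides. On the slide that held both groups at GD165, the 2 BPA uteri averaged 16.35 and the 1 control uterus 15.82, a difference of 0.53. On the slide that held both ages of BPA-exposed uteri, the GD165 uterus was at 16.66 and the GD100 uterus at 16.03, a difference of 0.63. Leaving out each animal in turn gave differences between 0.36 and 0.56 for BPA at GD165, and between 0.51 and 0.71 for age in BPA-exposed uteri. The latter stayed below the threshold each time, with adjusted p of at most 0.0063.

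At GD100 the PGRMC1 difference between BPA and control was 0.09 (log2, SE 0.09, adjusted p = 1 by limma), with a 95% interval from -0.10 to 0.27. No probe (0%) was called at this age either, and 0.782% had groups without overlap. The difference between the BPA effects at both ages was itself 0.38 (log2, SE 0.14, adjusted p = 0.55 by limma). A difference in response between the ages did not pass the correction, and 0 probes were called in this test, with 1584 at an unadjusted p below 0.05.

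Lists of cell type markers moved with some of these groups. The summed signal of the epithelium list, with 6 of 8 genes matched, was 8.35e+04 to 1.15e+05 in GD165 BPA and 1.24e+05 to 1.77e+05 in GD165 controls, without overlap. The squamous epithelium list (7 of 8 matched) gave 1.11e+04 to 1.33e+04 in GD165 BPA and 1.12e+04 to 1.05e+05 in GD165 controls. The Müllerian patterning list (7 of 7 matched) gave 1.55e+05 to 1.67e+05 in GD165 BPA and 1.20e+05 to 1.53e+05 in GD165 controls, without overlap. In this comparison 7.31% of all single probes had groups without overlap. Bright genes weigh most in such a sum. As a mean of log2 levels, each relative to its gene's mean over the arrays, the epithelium list stayed without overlap at GD165. It was at -0.40 to 0.20 in GD165 BPA and 0.26 to 0.61 in GD165 controls. For the Müllerian patterning list the groups overlapped. Their medians on that scale were -0.03 in GD165 BPA and -0.04 in GD165 controls, and the control range of -0.24 to 0.16 held all BPA values. The smooth muscle list overlapped at GD165, with 1.81e+06 to 2.38e+06 in BPA and 1.94e+06 to 2.60e+06 in controls.

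Between ages in BPA-exposed uteri, the leukocyte list (7 of 8 matched) went from 2.11e+04 to 3.53e+04 at GD100 to 5.91e+04 to 1.43e+05 at GD165. The endothelium list (7 of 7 matched) went from 5.22e+04 to 5.81e+04 at GD100 to 7.29e+04 to 1.21e+05 at GD165. The cell cycle list (7 of 8 matched) went from 7.51e+04 to 8.60e+04 down to 3.12e+04 to 5.78e+04. The part of these cell types in the PGRMC1 values was not tested.

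PGRMC2, the paralog of PGRMC1, was also well above background in 34 of 34 spots, and it was called in 0 of the comparisons. Its level was 16.55 ± 0.09 (SD, n = 5) in GD100 controls and 16.44 ± 0.09 (SD, n = 5) in GD100 BPA. In GD165 controls the level was 16.50 ± 0.11 (SD, n = 4), and in GD165 BPA 16.58 ± 0.14 (SD, n = 3). All 4 groups overlapped, over a range of 16.36 to 16.74. The difference between BPA and control was -0.11 (log2, SE 0.08) at GD100 and 0.08 (SE 0.09) at GD165, where its 95% interval ran from -0.12 to 0.28.

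Because both membrane components were measured on each array, their difference on 1 array does not depend on the scaling between arrays. This difference was chosen after the values were seen, so its tests are no independent support. PGRMC1 minus PGRMC2 was -0.79 ± 0.11 (log2, SD, n = 5) in GD100 controls, from -0.96 to -0.65, and -0.60 ± 0.08 (SD, n = 5) in GD100 BPA, from -0.70 to -0.52. In GD165 controls this was -0.51 ± 0.13 (SD, n = 4), from -0.65 to -0.36, and in GD165 BPA -0.13 ± 0.11 (SD, n = 3), from -0.26 to -0.05. The 3 GD165 BPA arrays were again above the other 14, so that the PGRMC1 and PGRMC2 probes changed unequally. Exact permutation tests, two-sided, gave p = 0.0238 between control ages, 0.0179 between ages in BPA-exposed uteri, 0.0238 for BPA at GD100 and 0.0286 for BPA at GD165, each with an adjusted p of 0.0286 over these 4 comparisons. The 0.0179 and the last value are the smallest that 3 uteri against 5 and 3 against 4 allow. The sign of this difference has no meaning, since probes differ in brightness.

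**Figure D3:**
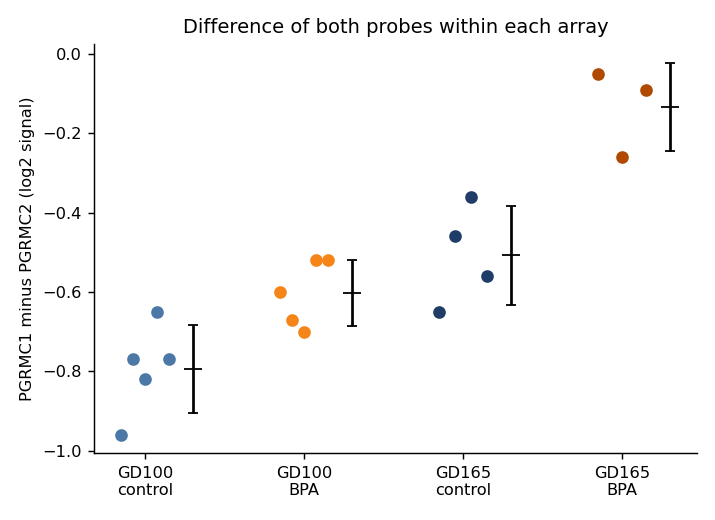
PGRMC1 minus PGRMC2 on the same array (log2 of the signals), 1 point per fetal uterus, with the group mean and SD as bars. The GD165 BPA points lie between -0.26 and -0.05, above the other 14.

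The coactivators and the corepressor were called in 0 of the comparisons. NCOA2, a p160 coactivator, was at 6.54 ± 0.14 (SD, n = 5) in GD100 controls, 6.41 ± 0.22 (SD, n = 5) in GD100 BPA and 6.62 ± 0.08 (SD, n = 4) in GD165 controls. In GD165 BPA it was at 6.71 ± 0.23 (SD, n = 3). Its spot signals were 62.1 to 144, and all 34 spots were well above background. The difference between ages in BPA-exposed uteri was 0.30 (log2, SE 0.13, adjusted p = 0.12 by limma), and the groups overlapped.

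NCOA3, the p160 coactivator also known as AIB1, was at 14.67 ± 0.10 (SD, n = 5) in GD100 controls and 14.56 ± 0.18 (SD, n = 5) in GD100 BPA. In GD165 controls it was at 14.78 ± 0.16 (SD, n = 4), and in GD165 BPA at 14.65 ± 0.14 (SD, n = 3). The difference between BPA and control was -0.11 (log2, SE 0.10) at GD100 and -0.13 (SE 0.12) at GD165. With no scaling between arrays the latter was 0.03.

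NCOR1 was at 11.12 ± 0.06 (SD, n = 5) in GD100 controls and 10.98 ± 0.15 (SD, n = 5) in GD100 BPA. In GD165 controls it was at 11.14 ± 0.06 (SD, n = 4), and in GD165 BPA at 11.07 ± 0.06 (SD, n = 3). Its lowest levels, from 10.82, were those of GD100 BPA uteri, and the difference from controls there was -0.14 (log2, SE 0.07, adjusted p = 1 by limma). The GD100 BPA group reached 11.20 and the controls reached down to 11.07, so the groups overlapped.

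For these 3 genes and PGRMC2 the 95% intervals of the BPA differences reached from -0.38 to 0.37 over both ages. The interval of each single difference was narrower than this span.

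**Figure D4:**
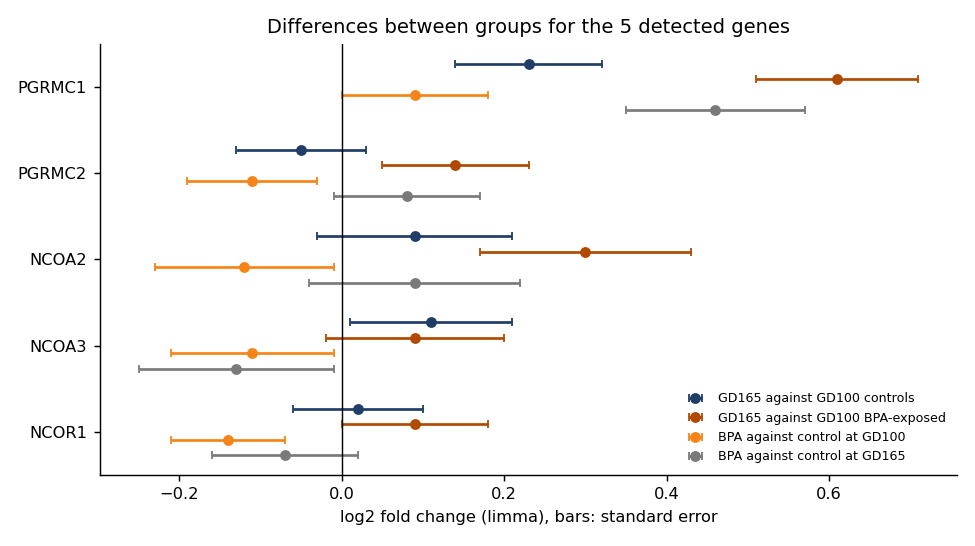
Log2 fold changes with standard errors (limma) of the 5 genes well above background in the 4 comparisons. PGRMC1 lies furthest to the right, at 0.61 between ages in BPA-exposed uteri and 0.46 for BPA at GD165, and the other 4 genes lie between -0.14 and 0.30.

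As a description over the 17 arrays, with no test, the named probes whose levels went most with PGRMC1 among 16230 probes were both probes of EDN3, an endothelin, with Pearson's r of 0.889 and 0.882, and SRPK2, a kinase of splicing factors, with 0.881. With group means removed these values were 0.505, 0.489 and 0.738. For PGRMC2 the closest were DNAJC1 (0.794), TXNL4B (0.759) and CADPS (0.741). For NCOA2 they were PRKACB (0.893), GPD1L (0.857) and APPL (0.847), for NCOA3 PF4V1 (0.776), PTD012 (0.691) and PALMD (0.690), and for NCOR1 TRAPPC1 (0.762), HBXAP (0.734) and ADAMTS1 (0.721). PGRMC1 and PGRMC2 had an r of 0.421, or 0.575 with group means removed. These points share arrays, scaling and age.

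Around these genes, 6 lists of 153 genes in all were read, of which 110 had a named probe. They cover membrane progesterone receptors and partners of PGRMC1, coactivator and corepressor complexes, receptor chaperones, progesterone response genes and other nuclear receptors that use the same coactivators. Between GD165 and GD100 controls 21 of 110 were called (19.1%), 14 higher and 7 lower at GD165, against 11.5% of all probes. Between ages in BPA-exposed uteri 16 were called (14.5%), 12 higher and 4 lower, against 9.68% of all probes. The lists were chosen with earlier results of these data known and hold 1 probe per gene. Whether a list differs from the array was not tested. Of the list genes named below as called with age, 4 of 12 in controls (ZBTB16, MUC1, GATA2 and NR3C2) and 1 of 8 in BPA-exposed uteri (NR3C2) were called in every alternative run, whereas 8 and 7 were not called when slide was a fixed block. For BPA against control 0 of 110 were called at GD100 and at GD165 by limma, and 4 and 11 had an unadjusted p below 0.05.

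Among membrane receptors and partners, PAQR5, a membrane progesterone receptor, rose 1.85-fold with age in controls (6.76 ± 0.33, n = 5, to 7.65 ± 0.17, n = 4, SD). PAQR5 was the 1 gene called of 11 measured (9.09%, against 11.5% of all probes). Its adjusted p was 7.8e-04 by limma, and the groups did not overlap, which held for 19.4% of all probes. At GD165 its level was -0.40 (log2, SE 0.17) in BPA-exposed against control uteri, with an adjusted p of 0.55 by limma. These groups did not overlap, which held for 7.31% of all probes. POR, which passes electrons to cytochrome P450 enzymes, had -0.22 (SE 0.10) there. INSIG1, which holds back cholesterol synthesis, fell by 1.14 (log2, SE 0.19, adjusted p = 9e-04 by limma) with age in BPA-exposed uteri. INSIG1 was the 1 gene called of 11 there (9.09%, against 9.68% of all probes). In controls its difference was -0.67 (SE 0.17, adjusted p = 0.011 by limma). INSIG1 was without overlap between ages in BPA-exposed uteri and in controls, as were 27.2% and 19.4% of all probes.

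Of 16 coactivator genes 0 were called higher and 2 lower with age in controls (12.5%, near the 11.5% of all probes), with a median of -0.05 (log2). SMARCA4, an ATPase of the SWI/SNF remodeler, fell by 0.42 (SE 0.08) and PELP1, a scaffold of steroid receptors, by 0.33 (SE 0.07). Of the 16 corepressor genes 3 were called with age in controls (18.8%, against 11.5% of all probes). CORO2A, a part of NCOR complexes, rose by 1.20 (log2, SE 0.27). SAP30 of the SIN3 complex fell by 0.58 (SE 0.10) and HDAC3, the deacetylase bound by NCOR1, by 0.36 (SE 0.07). HDAC3 also fell by 0.34 in BPA-exposed uteri (adjusted p = 0.0052 by limma). It was the 1 gene called of 16 there (6.25%, against 9.68% of all probes). NCOR1 itself differed by 0.02 between control ages.

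Of 12 receptor chaperones 0 were called with age in either treatment group, 3 and 5 had an unadjusted p below 0.05, and 10 of 12 were lower at GD165 in controls, with a median of -0.22 (log2) against 0.005 for all probes. The smallest p in controls were those of DNAJB1, at -0.31 (SE 0.09, adjusted p = 0.028 by limma), and STIP1, at -0.38 (SE 0.15).

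Of 37 progesterone response genes, the longest list, 9 were called higher and 3 lower with age in controls (32.4%, against 11.5% of all probes), with a median of 0.42 (log2) against 0.005 for all probes. Since the list was chosen with earlier results of these data known, its shares at either treatment are no independent support. ZBTB16, a transcription factor induced by progesterone and by glucocorticoids, rose by 3.04 (log2, SE 0.42), from 10.65 ± 0.27 (SD, n = 5) to 13.68 ± 0.58 (SD, n = 4). MUC1, an epithelial cell surface mucin, rose by 1.48 (SE 0.21). SULT1E1, the estrogen sulfotransferase, fell by 2.53 (SE 0.56) with overlapping groups, and GATA2, a transcription factor of the progesterone response, by 0.59 (SE 0.09). In BPA-exposed uteri 10 were called higher and 2 lower (32.4%, against 9.68% of all probes). There ZBTB16 rose by 2.70 (SE 0.46), SULT1E1 fell by 3.15 (SE 0.61) and GATA2 by 0.43 (SE 0.10), each without overlap, as were 27.2% of all probes. HSD17B2, which inactivates estradiol, was called higher at GD165 (adjusted p = 0.0082 by limma). It had a spot well above background on 2 of 3 arrays at GD165 and 0 of 5 at GD100. Its mean level at GD165 was 1.58-fold the lowest signal well above background on the GD100 arrays, which is no firm lower bound. Its call was lost in 16 of 29 alternatives, among them leaving out any 1 of the 3 GD165 BPA uteri, and with normexp background correction its difference was 0.20 (log2) in place of 2.31. The summed signals of several marker lists moved with age in controls without overlap, where 19.4% of all single probes had groups without overlap. The summed signal of the epithelium list was 5.66e+04 to 1.03e+05 at GD100 and 1.24e+05 to 1.77e+05 at GD165, that of the leukocyte list 2.51e+04 to 4.00e+04 and 7.12e+04 to 1.00e+05, and that of the endothelium list 4.21e+04 to 7.17e+04 and 7.63e+04 to 1.34e+05. As mean relative log2 levels, the epithelium list overlapped, at -0.53 to 0.28 at GD100 and 0.26 to 0.61 at GD165. The endothelium list overlapped too on that scale, at -0.48 to 0 and -0.07 to 0.61. The skeletal muscle list (8 of 8 matched) gave 2.70e+03 to 3.78e+03 at GD100 and 7.06e+03 to 1.38e+05 at GD165, and the cell cycle list was lower at GD165, going from 7.65e+04 to 8.81e+04 down to 2.90e+04 to 4.01e+04. The part of these cell types in the values of the lists was not tested.

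At GD165 the progesterone response genes with the smallest p for BPA were WNT4, a secreted signal of uterine development, at 0.66 (log2, SE 0.21, adjusted p = 0.46 by limma), and HSD11B1, which regenerates active glucocorticoid, at -0.76 (SE 0.25, adjusted p = 0.46). WNT4 was without overlap between the groups, as were 7.31% of all probes, and HSD11B1 overlapped. The median of the 37 genes was 0 on the log2 scale.

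Of 20 other nuclear receptors, 3 were called higher with age in controls and 0 lower (15%, near the 11.5% of all probes). NR3C2, the mineralocorticoid receptor, rose by 1.54 (log2, SE 0.13) from 9.75 ± 0.11 (SD, n = 5) to 11.29 ± 0.20 (SD, n = 4). VDR, the vitamin D receptor, rose by 1.25 (SE 0.24). In BPA-exposed uteri 2 of the 20 were called (10%, near the 9.68% of all probes). There NR3C2 rose by 1.58 (SE 0.14) and NR3C1, the glucocorticoid receptor, by 0.54 (SE 0.10). Between control ages NR3C1 differed by only 0.14 (SE 0.09, adjusted p = 0.3 by limma). For BPA at GD100 its difference was -0.22 (SE 0.09), not called but without overlap, which held for 0.782% of all probes. At GD165 RARB, a retinoic acid receptor, was at 0.59 (log2, SE 0.26, adjusted p = 0.55 by limma) for BPA against control. Its groups did not overlap there, which held for 7.31% of all probes. For BPA at GD100 RARB went the other way, at -0.51 (SE 0.21), not called and with overlap.

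**Figure D5:**
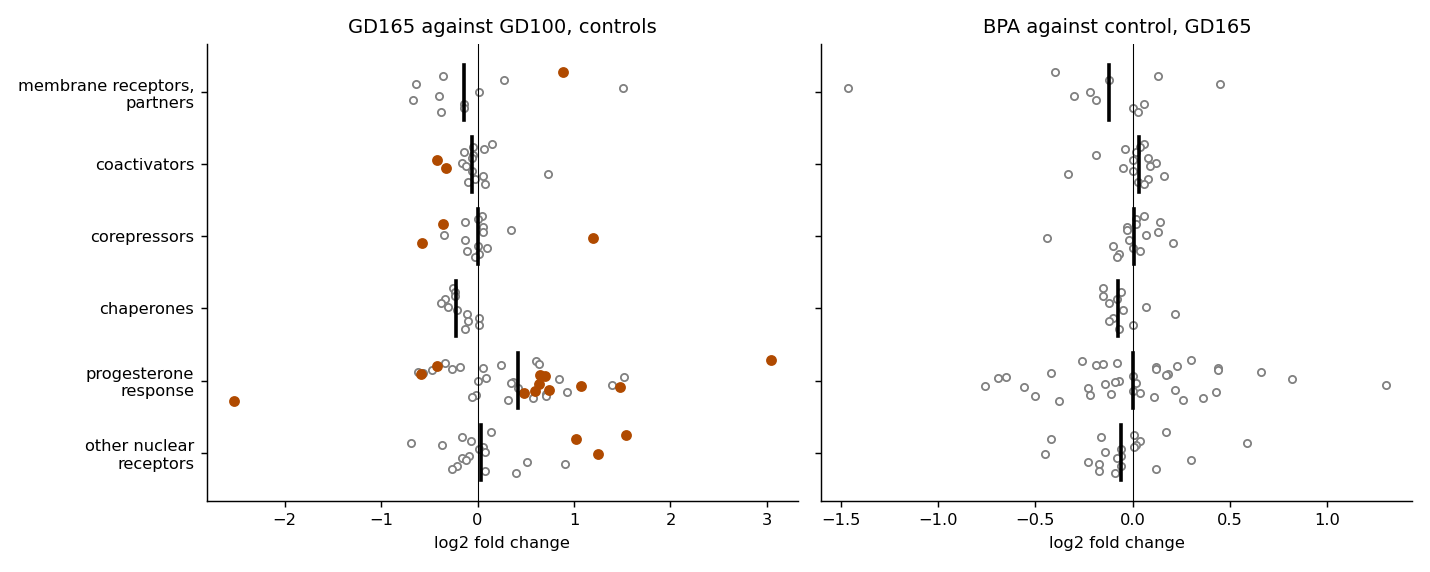
Log2 fold change (limma) of each measured list gene, 1 point per gene, filled where called, with the list median as a black bar, for age in controls (left) and BPA at GD165 (right). With age 21 of 110 genes are filled, 12 of them progesterone response genes, and for BPA 0.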

How the data were processed

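RNA from 17 fetal uteri was labeled with 1 dye and hybridized to 1 array each, an Agilent rhesus macaque design. Per the labels and methods, spot signals were extracted by the authors in Feature Extraction 9.5 under 1-color defaults, with background subtracted and a small positive value substituted in spots not above it. The deposited values are linear intensities with no scaling between arrays, and the table of all arrays equals the scanner values in 711467 of 711467 cases. The log2 signals of 2 spots per probe were averaged without outlier spots, and each array's 75th percentile was subtracted. No pseudocount was added. The fit used lmFit and eBayes of limma 3.58.1 in R 4.3.3 on 20217 probes. The error-weighted test of the methods was not repeated. Of the probes, 17397 carry a name, and where probes share a gene the brightest on average stands for it. For each list, up to 2 rises and 2 falls among called genes are named, or else up to 2 genes with the smallest p. The members and lists were chosen with earlier results of these data known. Nothing but the label of each sample set its group. The p values of limma and of the permutation tests rest on the spread between fetuses, which for PGR at GD100 is that of substitute values. Where the lower group had no spot well above background, a fold given is relative to each array's lowest signal well above background. The script was tested on simulated data.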

Additional observations from a re-analysis of the deposited data

Results flagged for a closer look

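Of 126 groups of 4 or 5 arrays examined, 5 held 1 array apart from the others by Dixon's test, where chance gives about 1 in 20, and 0 of the 5 belonged to PGR, the membrane components, the coactivators or NCOR1. The arrays were the lowest of SULT1E1 in GD100 controls, at 13.77, the lowest of SAP30 in GD165 controls, at 12.04, the highest of HSD17B2 in GD100 controls, at 2.47, the highest of SIN3A in GD100 BPA, at 11.83, and the highest of DKK1 in GD100 controls, at 11.48 (log2 levels).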

How the results depend on the processing

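Over the alternatives, 0 of the 6 genes were called for BPA at GD100 in every setting run, and for BPA at GD165 and the difference of the BPA effects in every setting but 1. A z test with only the error estimate of the scanning software, which holds no spread between animals, called 1 gene (PGRMC1) in each of these and 1 (PGRMC1) between control ages, 3 (PGR, PGRMC1 and NCOA2) between ages in BPA-exposed uteri, and 59 and 24 list genes for age in controls and for BPA at GD165. Between ages in BPA-exposed uteri, quantile normalization, no scaling and a threshold of 0.05 each called 2 (PGR and PGRMC1), and a fit of the compared groups only and slide as a fixed block called 0. Leaving out 1 animal called 0 to 1 gene between control ages (PGR, without GD165 control replicate 5), 1 to 2 between ages in BPA-exposed uteri (PGR added without that replicate or without GD165 BPA replicate 3) and 16 to 26 list genes between control ages. Of the 110 list genes, 21 were called between control ages as reported, 12 with the compared groups only, 7 with slide as a fixed block and 37 at a threshold of 0.05.

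The replicate numbers pair nothing: the 19 pairs of same-numbered arrays had correlations of deviations of -0.17 to 0.161, with 3 above 0.1. With replicate number as a block 7 list genes were called between control ages, and 1 and 0 of the 6 genes between ages in BPA-exposed uteri and in controls.

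Signs of small differences turned. For age in controls, PGRMC2 was 0.0029 with slide as a fixed block, NCOA2 -0.06 with quantile normalization and -0.02 with slide as a fixed block, and NCOR1 -0.03 with median scaling, -0.01 with quantile normalization and -0.0011 unscaled. For BPA at GD165, NCOA3 was 0.03, NCOR1 0.09, CDC37 0.06 and FKBP4 0.01 unscaled, and PGRMC2 was -0.00031 to 0.14 without 1 animal (lowest without GD165 BPA replicate 5). The difference of the BPA effects for NCOA3 was 0.03 with median scaling, 0.17 unscaled, 0.06 with slide and 0.08 with replicate number as a fixed block, and -0.11 to 0.05 without 1 animal, above 0 for 5 of them. The cause was not tested. PGR is limited by its signal over background.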
